A study of Sus scrofa with 48 samples.

Results

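The genes described here are xenobiotic cytochrome P450 genes of families 1, 2 and 3 (CYP1, CYP2 and CYP3) of the pig. They were chosen by name, and every probe whose accession belonged to one of them was taken. Of 9 listed genes, 8 had such a probe, with 13 probes in all. The array held 43603 probes, of which 2628 had a RefSeq gene name, for 1862 genes. CYP1A1 (A_72_P223362), CYP2B22 (A_72_P185176), CYP3A29 (A_72_P088491) and CYP3A39 (A_72_P322704) had 1 probe each. CYP2A19 (A_72_P035981 and A_72_P172956), CYP2C49 (A_72_P176161 and A_72_P146661) and CYP2E1 (A_72_P165451 and A_72_P428244) had 2 probes, and CYP2C33 (A_72_P185221, A_72_P298669 and A_72_P252252) had 3. The probe of a gene with the highest mean liver signal is called its first probe, and the others are numbered in the order given. No probe was matched to CYP1A2. The RefSeq table used for the names (assembly Sscrofa11.1) lists CYP3A39 as an older name of CYP3A46. Members of the CYP2C and of the CYP3A group have very similar sequences, and it was not tested whether their probes share signal.

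The levels of these genes were examined in F2 Swiss Large White pigs of 2 lines of descent. The F0 boars had received either a standard diet (F2 C, control line) or the standard diet supplemented with high amounts of methionine, choline, betaine, vitamin B6, vitamin B12 and folate (F2 E, experimental line), whereas the F1 boars and the F2 pigs of both lines had standard diets. RNA of gluteus muscle (GM), liver and kidney was hybridised to Agilent porcine arrays with 1 colour, for 8 F2 C and 8 F2 E pigs with 4 barrows and 4 females in each line, which gave 48 arrays. The males had been castrated, feed was withdrawn before slaughter, and tissue was taken after exsanguination. Each line went back to few boars, and the litters and sires of the 16 pigs were not given, so that pigs of a line may be related and p-values measure only the spread between these pigs.

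These enzymes carry out the first oxidation of most drugs, feed contaminants and plant compounds, and of some steroids and fatty acids. They are membrane-bound heme enzymes of the endoplasmic reticulum, best known from hepatocytes, and receive electrons from a reductase and from cytochrome b5. Their genes are switched on by foreign compounds through the aryl hydrocarbon receptor (CYP1), the constitutive androstane receptor NR1I3 and the pregnane X receptor NR1I2 (CYP2B, CYP2C and CYP3A). In pigs the breakdown of skatole, an intestinal product of tryptophan that contributes to boar taint, depends on CYP2E1 and CYP2A19.

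The tissue labels held in the data. All 12 probes of 8 liver marker genes and all 17 probes of 10 skeletal muscle marker genes separated the 16 arrays of their tissue from all other arrays, and so did 2 of 3 kidney marker probes. All 13 CYP probes were well above background on every liver array, 10 on every kidney array and 4 on every GM array. In the liver of 2 F2 C barrows (replicates 1 and 2) the scanner software had marked the spots of 7 and 3 of these bright probes as outliers, and these spots were left out, so that some liver values of F2 C rest on 6 or 7 pigs. The kidney arrays of F2 E replicates 5 and 7 stood apart with a median signal of 48, beside 100 to 240.5 on the other kidney arrays, and counts of called probes between tissues and between lines in kidney are given with and without both. With 4 arrays to a slide, no slide of GM or kidney mixed the lines, and 2 of the liver slides did.

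The first comparison asked where these genes are expressed. All 8 genes were higher in liver than in kidney, and all but CYP2B22 were higher in liver than in GM. CYP2E1, which oxidises ethanol, small solvents and skatole, differed most between liver and kidney. CYP2A19, the pig counterpart of the coumarin and nicotine oxidases, and CYP2C33 and CYP2C49, of the large CYP2C group, were also strong in kidney. In these comparisons all 48 arrays were normalized together, and values are log2 signals on that scale. Each tissue lay on slides of its own, so that tissue and slide cannot be told apart, and in bulk tissue fewer cells of a type cannot be told apart from less RNA per cell.

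**Figure D1:**
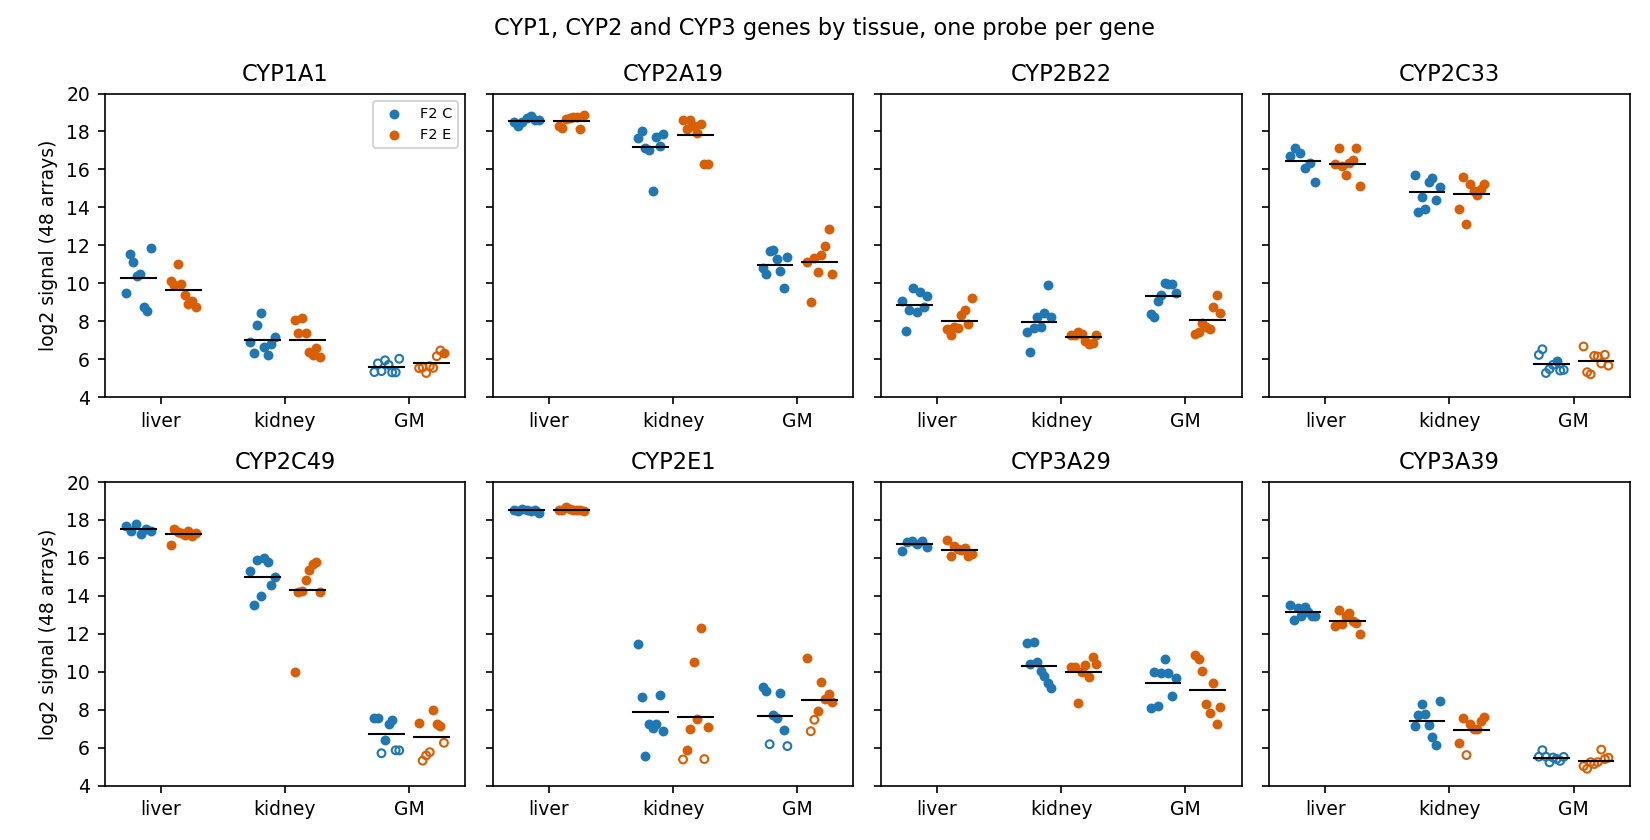
Log2 signal of the first probe of each CYP gene on 48 jointly normalized arrays, by tissue and line. Each point is 1 pig, open points were not well above background, and black lines are group means. Of these probes CYP2B22 alone shows overlapping ranges in all 3 tissues, and CYP2E1 in kidney spreads from 5.38 to 12.31.

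In liver, the first probe of CYP2E1 lay between 18.39 and 18.70 (median 18.52, 15 pigs). In kidney it lay between 5.38 and 12.31 (median 7.17) and in GM between 6.09 and 10.71 (median 8.18, 16 pigs each). The liver values lay far above those of both other tissues, whereas kidney and GM overlapped over most of their range. The second CYP2E1 probe lay between 10.96 and 12.16 in liver and between 5.27 and 5.86 in kidney, where it was well above background on 3 arrays, and it was not well above background on any GM array.

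CYP3A29 and CYP3A39 belong to the group whose human members metabolise the largest share of drugs. CYP3A29 lay between 16.08 and 16.92 in liver, between 8.35 and 11.55 in kidney and between 7.23 and 10.88 in GM. CYP3A39 lay between 11.97 and 13.54 in liver and between 5.61 and 8.49 in kidney, and was not well above background on any GM array. For both genes the lowest liver pig lay above the highest kidney pig.

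CYP2A19 had liver and kidney levels that overlapped by its first probe, which lay between 18.13 and 18.87 in liver (median 18.61), 14.86 and 18.61 in kidney (median 17.79) and 9.02 and 12.86 in GM. Its second probe separated liver (14.43 to 16.32) from kidney (8.10 to 12.64). The first probe of CYP2C49 lay between 16.67 and 17.77 in liver, between 10.01 and 16.02 in kidney and between 5.32 and 8.01 in GM, where it was well above background on 9 of 16 arrays. The first probe of CYP2C33 lay between 15.11 and 17.15 in liver and between 13.12 and 15.69 in kidney, and was well above background on 1 GM array.

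CYP1A1, the enzyme that polycyclic aromatic hydrocarbons induce through the aryl hydrocarbon receptor, lay between 8.53 and 11.86 in liver and between 6.11 and 8.41 in kidney, and was well above background on 1 GM array. CYP2B22, of the phenobarbital-inducible CYP2B group, lay between 7.28 and 9.75 in liver, between 6.37 and 9.93 in kidney and between 7.33 and 9.999 in GM. It was the only one of the 8 genes whose values overlapped among all 3 tissues.

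With limma and pig as a random block, all 13 probes were called higher in liver than in kidney at a Benjamini-Hochberg adjusted p below 0.05, beside 33.5% of all 34501 probes tested. The log2 ratio of liver over kidney was 10.77 ± 0.49 (SE) for the first CYP2E1 probe. The second, well above background on only 3 of the 16 kidney arrays, had a ratio of 6.20, which was 9.254 with processed signals and rests on kidney values mostly at background. It was 6.41 ± 0.30 for CYP3A29 and 5.72 ± 0.17 for CYP3A39. The smallest ratios were those of CYP2B22 with 0.88 ± 0.23 (adjusted p = 0.000843) and of the first CYP2A19 probe with 1.05 ± 0.27 (adjusted p = 0.000702), although the second CYP2A19 probe gave 4.85 ± 0.29. Without the 2 dim kidney arrays all 13 probes were again called. With the F2 E pigs alone, the first CYP2A19 probe was no longer called, with a ratio of 0.73 and an adjusted p of 0.0963.

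Between liver and GM, 12 of 13 probes were called higher in liver, beside 35.6% of all probes. Since 3 of these probes were not well above background on any GM array, only lower bounds hold for them. CYP3A39 was at least 139-fold, the third probe of CYP2C33 at least 81.6-fold and the second probe of CYP2E1 at least 54.4-fold higher in liver. CYP2B22 differed by -0.24 ± 0.23 on the log2 scale (adjusted p = 0.362), so that its liver and GM levels were not told apart.

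Between kidney and GM, 10 probes were called higher in kidney, beside 39.9% of all probes, and CYP2B22 was called lower in kidney, beside 35.2%, with a log2 ratio of -1.12 ± 0.23 (adjusted p = 3.04e-05). The first CYP2A19 probe was higher in kidney by 6.46 ± 0.27 and the first CYP2C49 probe by 8.01 ± 0.34. CYP3A29 differed by only 0.92 ± 0.29 (adjusted p = 0.00356). Without the 2 dim kidney arrays 11 probes were again called. Neither CYP2E1 probe was called, with a ratio of -0.36 ± 0.48 for the first probe (between -0.693 and -0.043 with 1 pig left out). When arrays were set to a common 75th percentile of the median signal in place of quantiles, CYP1A1 was no longer called (0.487, adjusted p = 0.103), whereas with the processed signal set likewise it was (2.466). With these scalings the second CYP2E1 probe, at or near background in both tissues, was called lower in kidney (-1.356 and -1.125). The order of the levels was liver, kidney and GM for CYP1A1, CYP2A19, CYP2C33, CYP2C49, CYP3A29 and CYP3A39. The GM levels of CYP1A1, CYP2C33 and CYP3A39 in this order were mostly at background. For CYP2E1 it was liver above kidney and GM, which did not differ beyond their spread, and for CYP2B22 it was liver and GM, which did not differ beyond their spread, above kidney.

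Other genes of the pathway were compared between liver and kidney from lists of named genes. CYP2D25, a vitamin D hydroxylase and the single other CYP1 to CYP3 gene with a probe of 18 listed, was higher in liver than in kidney by 2.83 on the log2 scale (adjusted p = 2.16e-18). Of 11 conjugating and other drug enzymes with a probe (of 36 listed), all 11 were called higher in liver than in kidney. The largest ratio was that of SULT2A1, a sulfotransferase of steroids, with 11.58, followed by GSTA1, a glutathione transferase, with 6.40. These counts stand beside 33.5% of all probes called higher and 36.6% called lower in liver. Of 12 P450 genes of families 4 and up, 5 were called higher and 2 lower in liver than in kidney, a share of higher genes near that of all probes. The 2 lower ones were CYP24A1 (-3.36) and CYP27B1, the vitamin D enzymes of the kidney, and CYP27B1 was not well above background on any liver array, so that its ratio is not given.

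Of 6 receptors and factors with a probe (of 17 listed), 4 were called higher in liver than in kidney. NR1I3 was higher in liver by 3.06 (adjusted p = 5.41e-18) and NR1I2 by 1.14 (adjusted p = 4.16e-12). HNF4A, a factor of hepatocyte and kidney tubule genes, had a ratio of 0.30 (adjusted p = 0.0758). NR1I2 and HNF4A were not well above background on any GM array. Of 3 genes with a probe in the list of electron donors, PGRMC1 and FDX1 were called higher in liver than in kidney. Neither is among the donors described above. Of those donors, CYB5A, cytochrome b5, had a ratio of 0.04, and no probe was matched to the reductase (POR). Of 3 transporters, ABCG2 was higher in liver and SLC22A6 and SLC22A8, the organic anion carriers of the kidney tubule, were lower.

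The second comparison, the question of the study, set F2 E against F2 C in each tissue. No CYP probe was called at an adjusted p below 0.05 in liver, kidney or GM. In liver, 12 of 13 probes had a lower mean in F2 E, 4 of them with an unadjusted p below 0.05. CYP2B22 had the lower mean in F2 E in all 3 tissues. Over all pigs the difference was largest in GM. In parts of the pigs this order changed, and GM was not tested against the other tissues.

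**Figure D2:**
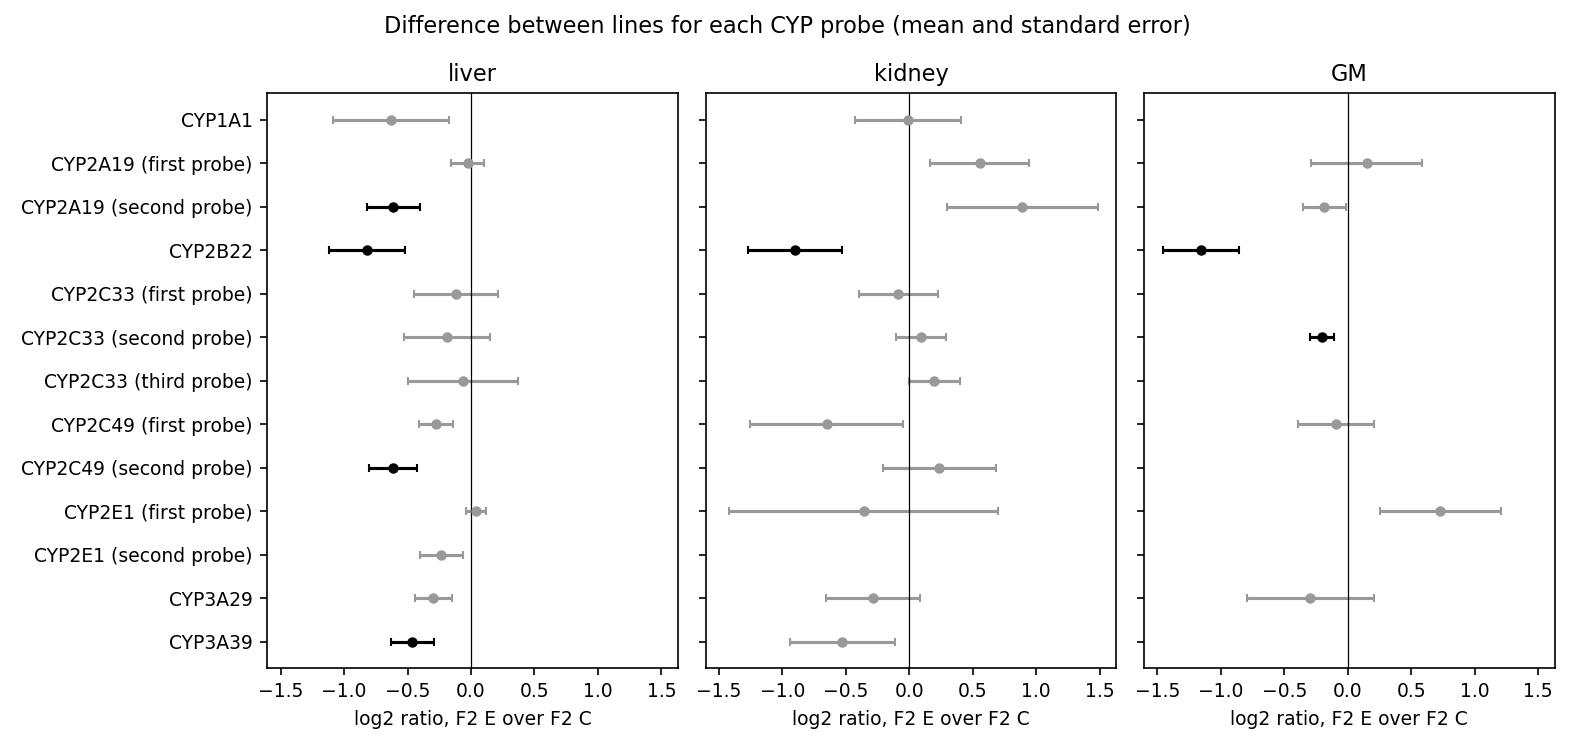
Log2 ratio between the lines (F2 E over F2 C) with limma's standard error for each CYP probe in liver, kidney and GM. Black points have an unadjusted p below 0.05, grey points do not, and no probe passed an adjusted p of 0.05. In liver 12 of 13 ratios lie below 0, and CYP2B22 lies below 0 in all 3 tissues.

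In liver 0 of 13 CYP probes were called, beside 0.0937% of 28823 probes tested. At an unadjusted p below 0.05 there were 4, all lower in F2 E, beside 4.32% of all probes that were lower at that limit. The median log2 ratio of the 13 probes was -0.27, beside -0.02 over all probes, and 12 of 13 were below 0, beside 53.8% of all probes. Several probes measure the same gene, and by the first probe of each gene 7 of 8 genes were lower. The F2 C and F2 E pigs overlapped for every one of the 13 probes, beside 0.0763% of all probes without overlap. Values below are log2 signals normalized within the tissue.

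The second probe of CYP2C49 lay between 15.87 and 17.08 (median 16.28, 7 pigs) in F2 C and between 15.09 and 16.20 (median 15.77, 8 pigs) in F2 E. All 8 F2 E pigs lay below the F2 C median. The ratio of the line means (log2, F2 E over F2 C) was -0.62 ± 0.19 (SE), with an exact two-sided permutation p of 0.00715 and limma's adjusted p of 0.320. The first probe of CYP2C49 pointed the same way, with -0.27 ± 0.13 and an adjusted p of 0.611 in limma.

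The second probe of CYP2A19 lay between 15.97 and 16.54 (median 16.29, 7 pigs) in F2 C and between 14.54 and 16.31 (median 15.68, 8 pigs) in F2 E. Its log2 ratio was -0.61 ± 0.21, with an exact permutation p of 0.0109 and limma's adjusted p of 0.401. Its first probe, close to the top of the signal scale, had -0.03 ± 0.13, so that the 2 probes of this gene disagreed in size.

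CYP3A39 lay between 12.75 and 13.57 (median 13.07) in F2 C and between 11.96 and 13.28 (median 12.64) in F2 E, with a log2 ratio of -0.46 ± 0.17 (exact permutation p = 0.0216, limma's adjusted p = 0.455). CYP3A29 had -0.30 ± 0.14 (limma's adjusted p = 0.615). CYP1A1 lay between 8.51 and 11.85 (median 10.43) in F2 C and between 8.73 and 11 (median 9.61) in F2 E. Its log2 ratio of -0.63 ± 0.46 did not exceed the spread between pigs (exact permutation p = 0.240).

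Within the 2 liver slides that held both lines, the log2 ratio was -0.505 and -0.639 for the second CYP2C49 probe, -0.455 and -0.863 for the second CYP2A19 probe and -0.316 and -0.445 for CYP3A39. The first of these slides held 2 barrows of each line and the second 2 females of each line, so that each ratio compares few pigs of 1 sex. Within them 0 CYP probes were called, with lowest limma adjusted p-values of 0.804 and 0.379. When slide was a random effect in limma over all liver arrays, the adjusted p-values of the 3 probes were 0.391, 0.469 and 0.561.

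CYP2E1 was not told apart between the lines in liver, and its first probe is so bright that quantile normalization sets its values almost equal. This probe lay between 18.55 and 18.74 in the control line, against 18.65 and 18.88 in F2 E, with a ratio of 0.04 ± 0.08, and with processed signals scaled to the 75th percentile 0.06 (adjusted p = 0.969). The second probe had -0.23 ± 0.17. The 3 CYP2C33 probes had ratios from -0.19 to -0.06 with standard errors from 0.33 to 0.43. Within the 4 F2 C and 4 F2 E pigs with upper numbers all 3 turned to positive ratios, from 0.12 to 0.44. For the first probe (0.44) the spots of 2 of these 4 F2 C pigs were marked and left out.

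In the same livers 0 of 8 liver marker genes were called between the lines, and 7 of 8 were lower in F2 E, with ratios from -0.14 to 0.03. Of 3 marker genes of hepatocytes around the central vein, where many P450 genes are most active, 2 were lower and none was called, and both periportal marker genes had ratios of 0.01 and 0.04. None of the 6 receptors and factors, 3 genes of the electron donor list, 11 conjugating enzymes, 10 other P450 genes of families 4 and up, CYP2D25 and 2 transporters tested was called between the lines in liver. Their medians were -0.03 for receptors and factors, -0.13 for the electron donor list, -0.07 for conjugating enzymes, -0.17 for transporters and -0.003 for families 4 and up.

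In GM, 7 probes of 6 genes passed the filter on low signal, and 0 were called, beside 0.769% of 25625 probes. In kidney 12 probes of 8 genes passed, and 0 were called, beside 0.0119% of 33664 probes. In kidney the ratios ranged from -0.90 to 0.89, with 7 below 0 beside 53.6% of all probes and, by the first probe of each gene, 7 of 8 genes below 0. Without the 2 dim kidney arrays 0 were called, and the first probes of CYP2C33 (0.257), CYP2C49 (0.012) and CYP2E1 (0.166) turned to positive ratios, while CYP2B22 had -0.975. With all arrays 1 (CYP2B22) had an unadjusted p below 0.05 and was lower, beside 2.18% of all probes. The lines overlapped for all 12 probes, beside 0.0297% of all probes without overlap. The largest positive ratio was that of the second CYP2A19 probe with 0.89 ± 0.59, which was 0.553 without F2 C replicate 1 of kidney and 0.503 without the 2 dim arrays. In GM the ratios ranged from -1.16 to 0.73, with CYP2E1 highest at 0.73 ± 0.48 (0.425 without F2 E replicate 6 of GM), and 5 were below 0, beside 53.4% of all probes. The CYP2E1 probe was not well above background on some GM arrays of either line. Beside CYP2B22, the second probe of CYP2C33 had an unadjusted p below 0.05 in GM. It was well above background on 4 F2 C arrays and 0 F2 E arrays, so that it passed the filter through F2 C alone and its ratio is no measured fold. These 2 probes stood beside 9.01% of all probes that were lower at that limit, and the lines overlapped for all 7, beside 0.453% of all probes without overlap. Of 8 liver marker genes, 7 were higher in F2 E in GM (median ratio 0.25) and 7 in kidney (0.42). None was called, and 3 in kidney had an unadjusted p below 0.05 in limma. The part of these transcripts in the CYP ratios was not tested.

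**Figure D3:**
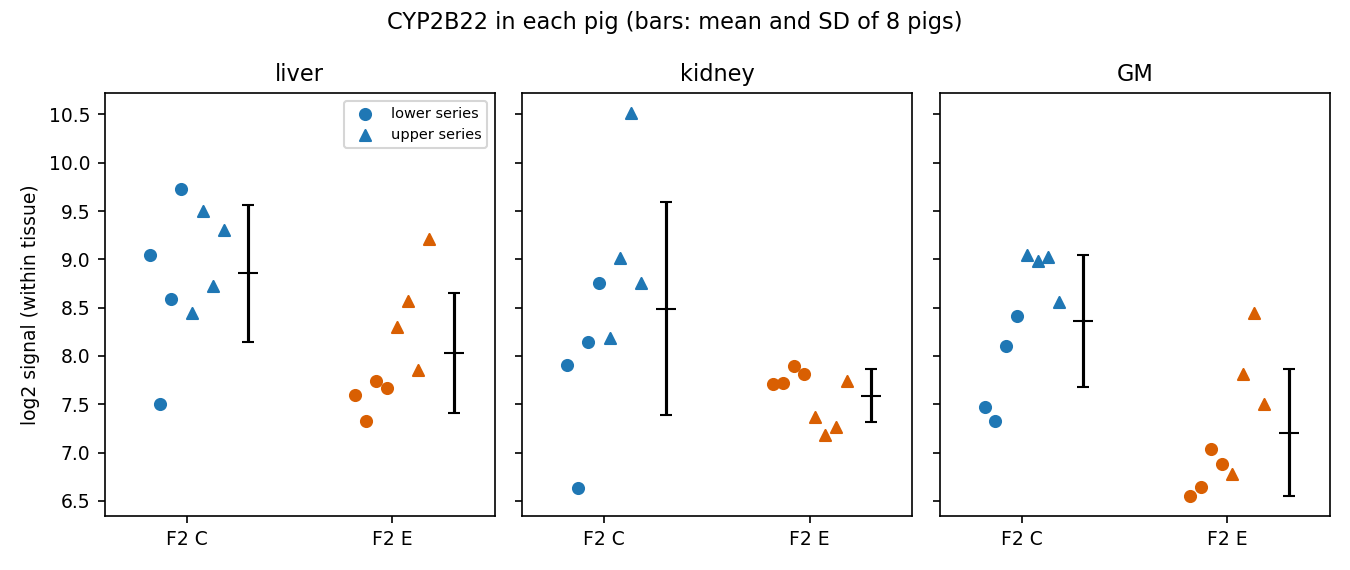
Log2 signal of CYP2B22 in each pig, normalized within tissue, for liver, kidney and GM. Circles are pigs of the lower and triangles of the upper series of pig numbers, and bars give mean and SD of 8 pigs. The F2 E mean is the lower one in each tissue, and the lines overlap in each.

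CYP2B22 in GM lay between 7.33 and 9.05 (median 8.49) in F2 C and between 6.55 and 8.45 (median 6.96) in F2 E, and all 8 F2 E pigs lay below the F2 C median. The log2 ratio was -1.16 ± 0.30, with an exact permutation p of 0.00591 and limma's adjusted p of 0.0759. In liver it lay between 7.51 and 9.73 (median 8.88) in F2 C and between 7.33 and 9.21 (median 7.79) in F2 E, with a ratio of -0.82 ± 0.30 (exact permutation p = 0.0295, limma's adjusted p = 0.443). In kidney it lay between 6.63 and 10.52 (median 8.47) in F2 C and between 7.18 and 7.90 (median 7.72) in F2 E, with a ratio of -0.90 ± 0.37 (exact permutation p = 0.0322, limma's adjusted p = 1.00). The F2 E kidneys had an SD of 0.27, beside 1.103 in F2 C, a difference that was not tested.

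The call for CYP2B22 in GM depended on the model. The median background signal of the GM arrays was 26 to 28 in F2 E and 14 to 24 in F2 C, and its part in the result was not tested. The numbers of the pigs form a lower and an upper series, and with the series as a block limma's adjusted p was 0.00687. Within the lower series the ratio was -1.05 (adjusted p = 0.0650) and within the upper series -1.27 (adjusted p = 0.0468). Without F2 E replicate 2 of GM it was -1.34 (adjusted p = 0.0355). In GM each slide held 1 line, and with slide as a random block the adjusted p was 0.546. In liver the ratio was -0.82 within the first slide and -1.46 within the second, the slides with both lines. Each compares 2 pigs of a line with 2 of the other, all of 1 sex (limma's adjusted p = 0.813 and 0.379). In kidney the CYP2B22 ratio was -0.075 within the lower and -1.73 within the upper series.

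The 3 tissues came from the same pigs and are not independent evidence for CYP2B22. Across the 16 pigs, with line means subtracted, the CYP2B22 signals of liver and GM had a Pearson r of 0.426 (rho 0.432, permutation p = 0.113 and 0.106), those of GM and kidney 0.431 (rho 0.359, p = 0.112 and 0.207) and those of liver and kidney 0.354 (rho 0.315, p = 0.220 and 0.248). After adjustment over the 18 such relations computed for the 8 genes the p-values of r were 0.408, 0.408 and 0.495, and those of rho 0.449, 0.466 and 0.497. Without the 2 farthest pigs r was 0.230, 0.402 and -0.012. Within the lower series r was 0.705, 0.833 and 0.940, and within the upper series -0.374, -0.005 and 0.118, with 8 pigs each.

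By the methods' t-test, 1 CYP probe passed an unadjusted p of 0.01 in GM (CYP2B22), beside 5.5% of all probes, 1 in liver (the second of CYP2C49), beside 2.15%, and 0 in kidney, beside 1.05%. After Benjamini-Hochberg adjustment 0 passed in any tissue, where the shares of all probes were 0.0382% (liver), 0.0149% (kidney) and 0.492% (GM).

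It was further asked whether the line difference depended on tissue or sex. The difference in liver minus that in kidney was called for 0 of 13 probes, beside 0.0203% of all probes, and for 0 without the 2 dim kidney arrays. The second CYP2A19 probe had the lowest unadjusted p (0.0125, adjusted p = 1.00) with -1.49 ± 0.57. For CYP2B22 it was -0.01 ± 0.47. The difference between the line differences of barrows and females was called for no CYP probe in liver, kidney or GM, beside 0% of all probes in each tissue. At an unadjusted p below 0.05 there were also 0 CYP probes, beside 1.76% of all probes in liver, 2.63% in kidney and 3.46% in GM.

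Barrows and females were then compared over both lines. No CYP probe was called in liver (beside 0.121%), kidney (beside 0.0921%) or GM (beside 0.121%). At an unadjusted p below 0.05 there were 2 in liver, 2 in GM and 0 in kidney, all higher in barrows, beside 7.72%, 2.15% and 0.457% of all probes that were higher at that limit. In liver these were 2 of the 3 CYP2C33 probes. The third CYP2C33 probe lay between 11.60 and 13.68 (median 12.68) in 8 barrows and between 10.57 and 12.79 (median 11.74) in 8 females. The log2 ratio was 0.98 ± 0.37 (exact permutation p = 0.0331, limma's adjusted p = 0.265). The first probe had 0.66 ± 0.30 and the second 0.40 ± 0.33 (between 0.181 and 0.612 with 1 pig left out). Within the lower series, where the barrows lay on one slide and the females on another so that sex and slide cannot be told apart, the third probe had a ratio of 1.5 (limma's adjusted p = 0.00902), and within the upper series 0.47.

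In GM, the first probe of CYP2E1 lay between 6.19 and 9.79 (median 7.99) in barrows and between 5.64 and 7.90 (median 6.76) in females, with a ratio of 1.19 ± 0.40 (exact permutation p = 0.0264, limma's adjusted p = 0.998). It was not well above background in F2 C replicates 4 and 7 and F2 E replicate 8, all females, nor in F2 E replicate 7, a barrow. The CYP2E1 ratio thus rests in part on background values. The first probe of CYP2C49 lay between 5.08 and 7.13 (median 6.58) in barrows, of which 7 had it well above background, and between 5.31 and 6.38 (median 5.49) in females, of which 2 did. Its ratio was 0.84 ± 0.23 (exact permutation p = 0.00762, limma's adjusted p = 0.871), and 1.04 with an adjusted p of 0.00360 without F2 E replicate 7 of GM. Since this probe was not well above background in most females, these ratios are no measured folds. Of 8 liver marker genes in GM 7 had the higher mean in barrows and 1 the lower, and 1, ALB (serum albumin), was called, with 1.87 ± 0.34 (adjusted p = 0.0310). ALB lay between 6.89 and 9.49 in GM of barrows and between 5.72 and 7.69 in females, and the log2 of the summed signal of all 12 liver marker probes from 11.36 to 13.72 and from 10.86 to 11.95. The part of these transcripts in the CYP2E1 and CYP2C49 values was not tested.

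CYP2E1 in kidney and GM was then set beside the liver markers of the same pigs, which it followed for some markers and not for others. In kidney its first probe was lowest in F2 E replicates 7 and 2 at 5.27 and 5.31 and highest in F2 E replicate 1, F2 C replicate 5 and F2 E replicate 6 at 12.82, 11.98 and 11.08, and the 2 lowest values were not well above background. ALB in the same kidneys was 5.54 and 5.40 in the first 2 pigs and 11.79, 10.93 and 9.92 in the other 3. The 3 kidneys with the most CYP2E1 were thus the 3 with the most ALB, and they came from both lines and both sexes.

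**Figure D4:**
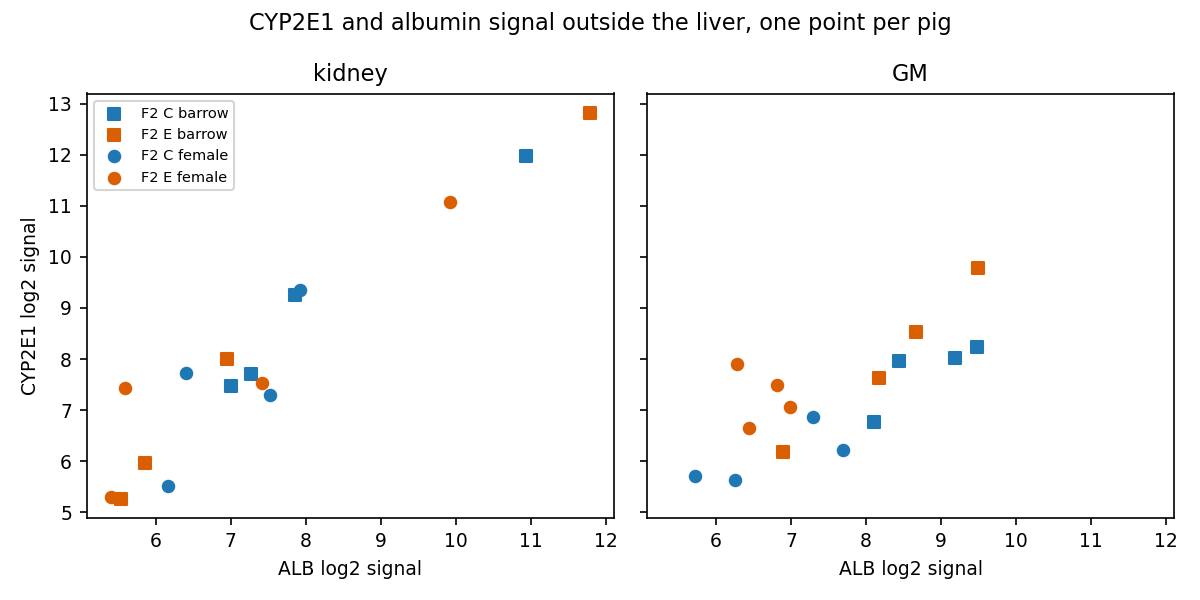
Log2 signal of CYP2E1 (first probe) against ALB in kidney and GM, 1 point per pig, coloured by line and shaped by sex. In kidney 3 pigs stand above 11 in CYP2E1 and above 9.9 in ALB, and in GM barrows hold the highest values of both.

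Across the 16 kidneys, with line means subtracted, CYP2E1 and ALB had a Pearson r of 0.953 (permutation p = 1e-05, the smallest the resamples can give, adjusted 2e-05) and a rho of 0.874 (p = 4e-05, adjusted 8e-05). Without the 2 pigs farthest from the median r was 0.894, without the 2 dim arrays it was 0.967, and it was 0.940 within the lower and 0.970 within the upper series. In GM r was 0.858 (p = 4e-05, adjusted 4e-05) and rho 0.797 (p = 0.00046, adjusted 0.00046), with 0.773 without the 2 farthest pigs, 0.943 and 0.681 within the series, 0.952 in barrows and 0.456 in females. CYP2E1 was not well above background on some GM arrays, so that these values rest in part on background. The 2 relations were chosen after the data were seen, and p-values were adjusted over both.

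Of all 12 liver marker probes in kidney, those of ALB, SERPINA1 and HP, 6 in all, had an r with CYP2E1 from 0.871 to 0.969, and the 6 probes of TTR, APOA1, F2, TF and APOC3 had from -0.077 to 0.388. All of the latter genes were well above background on all 16 kidney arrays. ALB was so on 13 of 16, SERPINA1 on 14 and HP on 16. In GM 10 of the 12 marker probes had an r above 0.5 with CYP2E1, 9 with the first probe of CYP2C49 and 8 with the second probe of CYP2C33, and none with either CYP2A19 probe, CYP2B22 or CYP3A29. The second CYP2C33 probe was not well above background on most GM arrays, nor the first CYP2C49 and CYP2E1 probes on several. Their r with the markers thus rest in part on background values. In kidney none of the other 11 CYP probes tested exceeded an r of 0.5 with any marker, except CYP1A1 with 1 marker probe at 0.578. On the log2 scale the summed marker signal was 15.03 to 15.80 in F2 C kidneys, against 15.49 to 17.12 in those of F2 E. Whether liver RNA reached these samples was not tested.

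The spread among pigs in liver differed widely between the genes. Within lines, the SD of log2 signal over the 13 probes had a median of 0.389, beside 0.293 over all 28823 probes tested in liver. CYP1A1 had an SD of 1.04, above 99.2% of all probes, and its highest pig (F2 C replicate 4, 11.85) exceeded its lowest (F2 C replicate 3, 8.51) 10.1-fold, both being females. The 3 CYP2C33 probes had SDs of 0.69, 0.76 and 0.97, and CYP2B22 had 0.67. CYP3A29 with 0.26 and CYP3A39 with 0.36 were near the median of all probes.

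The first CYP2E1 probe had an SD of only 0.07, below all but 0.038% of all probes, yet it ranked between 16 and 33 from the brightest on every liver array. Quantile normalization sets the values at such ranks almost equal, and with scaling of each array to its 75th percentile the SD was 0.22. The first CYP2A19 probe, with ranks from 8 to 67, had 0.24, and 0.42 with that scaling. The second CYP2E1 probe, lower on the scale, had 0.36 and 0.39.

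Probes of the same gene were compared across livers, with line means subtracted, and those of CYP2C33 and CYP2C49 followed each other. The first CYP2C33 probe had an r of 0.916 with the second (rho 0.873) and 0.921 with the third (rho 0.895), with 14 pigs and adjusted permutation p-values of 0.00011 for both r. The 2 CYP2C49 probes had 0.772 (rho 0.814, adjusted p = 0.00112). The 2 CYP2A19 probes had 0.558 (rho 0.552, adjusted p = 0.0750), and 0.162 without the 2 farthest pigs, in liver, and 0.914 (rho 0.888, adjusted p = 5.5e-05) in kidney, and the 2 CYP2E1 probes 0.542 (rho 0.639, adjusted p = 0.0560) in liver, where rho passed (adjusted p = 0.017) and r was 0.622 without the 2 farthest pigs. In kidney the first and the third CYP2C33 probe had an r of 0.252 (rho 0.312, adjusted p = 0.361). These p-values were adjusted over 11 pairs of probes in liver and kidney.

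Between genes, the 28 pairs of first probes had no common sign with quantile normalization: 14 had an r above 0 and 14 below, with a median of 0.004. CYP2A19 and CYP2B22 had an r of 0.713 over 15 livers (permutation p = 0.00215, adjusted over 28 pairs 0.0430) and CYP2A19 and CYP2C33 had -0.729 over 14 livers (p = 0.00305, adjusted 0.0430). By Spearman's rho they had 0.708 and -0.682, with adjusted p-values of 0.134 for both, and with quantile normalization no pair passed by that measure. The pairs that passed depended on the normalization. With arrays set to a common 75th percentile, CYP2A19 and CYP2B22 had an r of 0.842 (permutation, adjusted p = 0.00084) and a rho of 0.868 (adjusted p = 0.00224), and CYP2A19 and CYP2C33 had -0.605 and no longer passed (adjusted p = 0.164). With that scaling CYP2A19 and CYP2E1, which had an r of 0.068 with quantiles, passed with an r of 0.86 (permutation, adjusted p = 0.00448) and a rho of 0.768 (adjusted p = 0.03). With quantiles and without the 2 farthest pigs, r of the first 2 pairs was 0.765 and -0.586. It was 0.653 and -0.878 within the lower series and 0.771 and -0.660 within the upper. CYP2B22 and CYP2C33 had -0.661 (adjusted p = 0.139) and CYP3A29 and CYP3A39 -0.274 (adjusted p = 0.744).

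**Figure D5:**
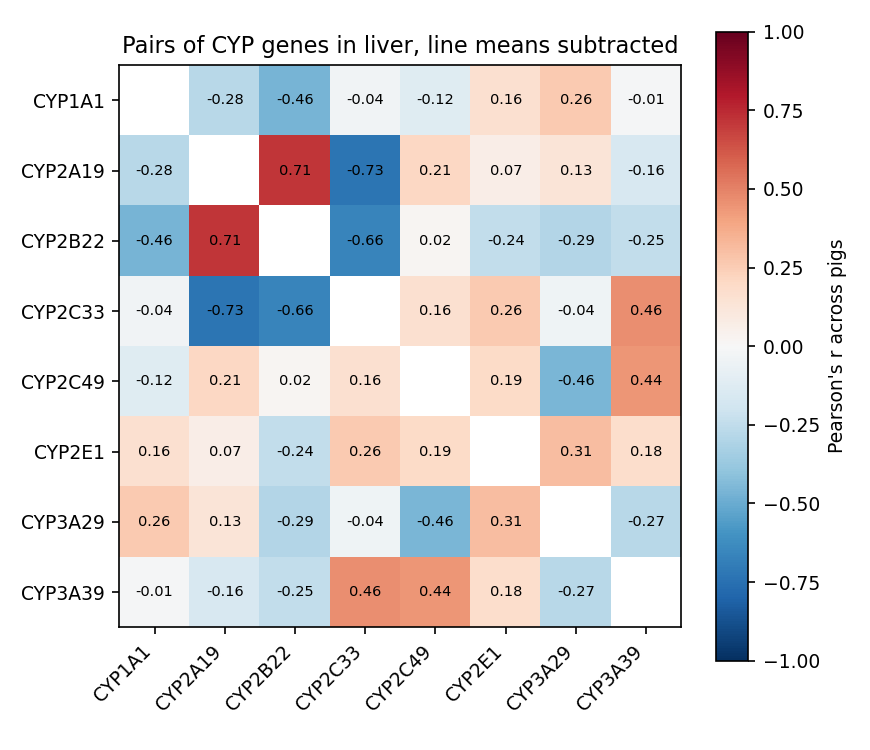
Pearson's r across pigs for each pair of the 8 CYP genes in liver, first probes, with line means subtracted, for 14 to 16 pigs a pair. Red is positive and blue negative. Values are those with quantile normalization, where the 2 pairs that passed an adjusted p of 0.05 were CYP2A19 with CYP2B22 at 0.713 and CYP2A19 with CYP2C33 at -0.729. With 75th percentile scaling the latter did not pass (-0.605) and CYP2A19 with CYP2E1 did (0.86).

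Single pigs stood at the low end of several genes. In liver, F2 E replicate 3, a female, was the lowest of its line for 7 of 13 probes, those of CYP1A1, CYP2C33, CYP2E1 and CYP3A39, and the highest for 2, CYP2B22 and the first probe of CYP2A19. A single F2 E barrow (replicate 5 of liver and 7 of kidney) was the lowest of its line for both CYP2C49 probes in liver (16.89 and 15.09) and in kidney (10.59 and 11.29), where its array was 1 of the 2 with a median signal of 48 and had the fewest probes well above background (25071). The liver array of F2 E replicate 3 likewise had the lowest median signal (88.0) and the fewest probes well above background (24128) of the liver arrays. The part of these array differences in the low values was not tested. In kidney, F2 C replicate 1, a barrow, was the lowest for both CYP2A19 probes, with 15.14 and 8.65. In liver this pig's CYP2A19 spots were marked as outliers, so that no value can be set beside them.

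Between liver and kidney of the same pigs, CYP2C49 had an r of 0.764 (rho 0.376, permutation p = 0.0300 and 0.187, adjusted 0.365 and 0.466) over 14 pigs, and 0.132 without the 2 farthest pigs. This relation rests on those pigs, and it was 0.930 within the lower and -0.307 within the upper series. CYP1A1 had 0.520 (rho 0.547, p = 0.0410 and 0.0310, adjusted 0.365 and 0.448), with 0.478 without the 2 farthest pigs, -0.017 within the lower and 0.652 within the upper series. CYP2C33, CYP2E1, CYP2A19 and CYP3A39 had values from -0.065 to 0.125, and CYP3A29 -0.325.

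The genes most like each member across livers, with line means subtracted, came from 2207 to 2209 named probes of other genes. For CYP1A1 these were CEND1 (r = 0.861) and TFIP11 (0.748), for CYP2A19 IGF2 (0.882) and RNF19A (0.875), and for CYP2B22 ROMO1 (0.801) and RPS21 (0.795). For CYP2C33 they were GUCY2C (0.916) and COPS5 (0.915), and for CYP2C49 C14H1orf198 (0.695) and HTT (0.633). For CYP2E1 they were LEAP2 (0.789), a peptide hormone of the liver, and C9 (0.772), a complement protein, and for CYP3A29 the estrogen sulfotransferase SULT1E1 (0.651) and AFP (0.560). For CYP3A39 they were CD36 (0.691), a fatty acid carrier, and FTH1 (0.666). Each value is the highest or second highest among these probes and describes 14 to 16 livers. Those of CYP2E1 rest on its first probe, which quantile normalization sets almost equal between livers. Those of CYP2A19 also rest on a very bright probe, whose SD was 0.24 with quantiles and 0.42 with 75th percentile scaling.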

How the data were processed

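RNA of GM, liver and kidney of 16 F2 pigs was measured on 48 one-colour arrays. The authors scanned the arrays and deposited Feature Extraction files (version 10.5.1.1 per the file headers, another version in the methods) whose median spot, background and processed intensities are not normalized between arrays. The 48 per-array columns and the ratios, p-values and false discovery rates of the authors' 3 tables were not used. The members and gene lists were chosen with earlier results of these data known.

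Following the methods, median signals were quantile-normalized within each tissue (over all 48 arrays between tissues) and log2-transformed. Control spots and marked outliers were left out, spots of a probe averaged, and probes kept with a signal above 25 and well above background on at least 50% of a group's arrays, with at least 2 unmarked arrays per group. Each probe was named through its accession in the RefSeq table. limma 3.58.1 (lmFit, eBayes, R 4.3.3) was tested on simulated data and run on all probes. F2 E against F2 C was fitted without a block, sexes with line as a term, and tissues with pig as a random block (correlation 0.0301). Adjusted p-values are Benjamini-Hochberg values over all probes. Single values also got exact two-sided permutation tests over 6435 splits of 16 pigs (smallest p 0.000155, more where a pig is missing), and correlations 100000 resamples within lines (scipy 1.17.1). Lists are given by counts. Every member and its probes were described, and list genes were named where called or, at most 3 a list and comparison, where largest. Per array the median signal ranged from 48 to 88.5 in GM, 88 to 167 in liver and 48 to 240.5 in kidney, and the number of arrays limits the precision. Where a probe was above background on no array of a tissue, the fold is a lower bound, taken against the higher of the probe's own signal and the lowest signal well above background on each array. Alternatives were scaling to the 75th percentile, processed signals, normexp, other filters, blocks, slides, series and left-out replicates. The values of one listed gene are not reported here.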

Additional observations from a re-analysis of the deposited data

Results flagged for a closer look

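In 5 of 64 groups of pigs (13 probes, 3 tissues, 2 lines, where tested) 1 pig lay far from the others by Dixon's test, and chance gives about 1 group in 20. In kidney, the first CYP2A19 probe was 15.14 in F2 C replicate 1, with the next pig at 17.06. The first CYP2C49 probe was lowest in the same F2 E barrow both in liver (16.89, next 17.37) and in kidney (10.59, next 14.57). The first CYP2E1 probe was highest in the liver of 1 F2 E female (18.88, next 18.74). CYP3A29 was lowest in the kidney of the same pig (8.91, next 10.29). These kidney arrays of the F2 E barrow and of this female were the 2 with a median signal of 48, beside 100 or more on the other kidney arrays, and its part in these values was not tested. No difference of effects between sexes or between liver and kidney was called.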

How the results depend on the processing

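Over 2158 values of single CYP probes under other settings, 2079 kept their direction and their side of the threshold, 69 reversed, 8 newly passed it and 2 no longer did. The count of called CYP probes between the lines in GM was 0, and 1 (CYP2B22) with the number series as a block, with the replicate block on the number in the labels (adjusted p = 0.0108) and within the upper series. With single replicates left out it was between 0 and 1, with 1 without F2 E replicate 2. Barrows against females gave 0 in liver and 1 within the lower series (chosen after seeing the data), and in GM between 0 and 1, with 1 without F2 E replicate 7. The replicate block changed no other call, and the numbers do not pair the pigs: of 8 same-numbered pairs, 2 in GM, 6 in liver and 3 in kidney correlated over 0.1, and 1, 3 and 1 F2 C arrays correlated best with their own number.

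Some log2 ratios of F2 E over F2 C, none of them called, turned sign, and the cause was not tested. In GM these were the first CYP2A19 probe within the lower series (-0.698), the second within the upper (0.187), the second CYP2C33 probe (0.063) and the first CYP2C49 probe (0.126) with 75th percentile scaling, the latter also within the upper series (0.411), and CYP3A29 within the lower (0.923). In liver these were the first CYP2A19 probe with processed signals (0.037) and within slide 2 (0.103), the first CYP2C33 probe with marked spots kept (0.007), the first, the second and the third CYP2C33 probe within the upper series (0.438, 0.118 and 0.416) and CYP2E1 within slide 1 (-0.009). In kidney these were CYP1A1 with processed signals (0.024), 75th percentile scaling (0.053), normexp (0.013), quantiles over 48 arrays (0.001) and within the lower series (0.447), within the upper series CYP2E1 (0.464), CYP3A29 (0.692) and CYP3A39 (0.225), and without the 2 dim arrays (chosen after seeing the data) the first probes of CYP2C33 (0.257), CYP2C49 (0.012) and CYP2E1 (0.166). The ratio of kidney over GM of CYP2E1 was 0.173 in F2 C pigs, and the liver minus kidney line difference of CYP2B22 was 0.037 with 75th percentile scaling and 0.064 without the dim arrays.

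With replicates left out, ratios that turned sign were, in GM, those of the first CYP2A19 (-0.118 to 0.459) and CYP2C49 (-0.255 to 0.039) probes. In liver they were those of the first CYP2A19 probe (-0.074 to 0.034) and the first, the second and the third CYP2C33 probe (-0.345 to 0.06, -0.372 to 0.037 and -0.289 to 0.16). In kidney they were CYP1A1 (-0.193 to 0.213), the first and second CYP2C33 probes (-0.217 to 0.111 and -0.036 to 0.215), the second CYP2C49 probe (-0.024 to 0.434) and CYP2E1 (-1.058 to 0.169). The line difference of CYP2B22 in liver minus kidney was between -0.303 and 0.117. Calls between kidney and GM changed with 75th percentile scaling for CYP1A1 (0.487, no longer called) and the second CYP2E1 probe (-1.356, called, and -1.125 with processed signals).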
